A study of Homo sapiens with 15 samples.

Results

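The genes described here are 45 human genes of mitosis and the G2/M transition, the step at which a cell that has copied its DNA enters division. A probe set is the array's unit of measurement, and it may be annotated to 1 gene, to several or to none. A gene's measurements were all non-control probe sets annotated to that gene alone. The rule used gene names and no measured value, but the 45 genes themselves were chosen with earlier results of these data known. The rule found 93 probe sets of the 54613 non-control probe sets on the array, and all 45 genes had at least 1 of them, of 19775 genes in all. After a filter on dim probe sets, 81 member probe sets of all 45 genes were tested, beside 28897 probe sets of 13607 genes in the whole series. The other 12 member probe sets were dim, above the array's median on at most 1 of the 15 arrays.

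The cells were THP-1, a human monocytic leukaemia line that divides continuously in culture. Of the 5 groups, 1 was untreated (0 h), 2 received infliximab and 2 received CDP870, each agent for 6 h or for 24 h; every group has 3 arrays. Infliximab is a whole antibody against the cytokine TNF, and CDP870 (certolizumab pegol) is an antibody fragment against TNF that carries polyethylene glycol and no Fc part. Dose and vehicle are not stated in the labels. All untreated arrays analysed here are from 0 h, so time in culture and treatment cannot be told apart against 0 h. The matched comparison of infliximab with CDP870 at the same hour has no such gap.

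As background, entry into mitosis is driven by cyclin B bound to the kinase CDK1, which Cdc25 phosphatases switch on. The spindle checkpoint then holds chromosome separation until every kinetochore is attached, after which CDC20 activates the anaphase-promoting complex, a ubiquitin ligase that marks securin (PTTG1) and cyclin B for destruction. Most of these genes are transcribed in waves late in the cell cycle, through the DREAM and MuvB complexes, B-Myb and FOXM1, so their RNA level in a bulk sample depends on how many cells are in G2 and M. In these bulk samples, fewer cells in that stage and less RNA per cell cannot be told apart.

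Values are the deposited log2 expression values, so a difference of 1 is 2 times the level. Since the scale has no known zero, a value is read only against the same probe set on other arrays. A change is called at an adjusted p under 0.05 from limma, fitted over all tested probe sets. Unless another probe set is named, the probe set describing a gene is the one, of those tested, that was brightest on average over the 15 arrays, and errors are standard errors of the fit. The series calls its replicates biological, and nothing else says how the cultures were kept apart, so a p-value here reflects only how these samples scatter, which may be technical.

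The 15 arrays had medians of 2.93 to 3.07, and the line's monocytic markers LYZ, CEBPA, TYROBP and SPI1 lay above the array median on all 15 arrays, while CD14 did so on 2. Infliximab 24 h replicates 5 and 6 and untreated replicate 3 had the lowest median correlations with the other arrays, at 0.9725, 0.9787 and 0.9823. Infliximab 6 h replicate 9 came next at 0.9833, so untreated replicate 3 was hardly lower than other arrays. Counts at 6 h are also given without these 3 arrays of lowest rank, called below the 3 arrays that stood apart. The mean log2 value of the 18 hybridisation spike-in probe sets, which are added to every sample alike, was 7.38 ± 0.13 (SD, n = 3) at 0 h and 7.75 ± 0.04 with infliximab at 6 h. It was 7.51 ± 0.15 with infliximab at 24 h, and 7.50 ± 0.12 and 7.60 ± 0.20 with CDP870 at 6 and 24 h. Of 6 epithelial markers, 5 were tested. Of these, 4 rose with infliximab at 6 h against 0 h, and all 5 rose at 24 h and against CDP870 at both times. Their mean log2 level over the arrays of a group ran from 6.69 to 6.92 at 0 h, 7.23 to 7.52 and 7.33 to 7.45 with infliximab at 6 and 24 h, and 6.23 to 6.47 and 6.36 to 6.42 with CDP870. The defining marker CDH1 was not above the array median on any array. Of 8 tested markers of the monocytic line, 1 rose with infliximab at 6 h and 2 at 24 h against 0 h, and 2 were higher than with CDP870 at each time; FCER1G, an Fc receptor subunit, had group means of 7.29 at 0 h, 7.94 and 7.95 with infliximab and 7.41 and 7.21 with CDP870. No tested T cell, B cell, erythroid or fibroblast marker was called in the infliximab comparisons. The part of these markers in the results was not tested.

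A small group of mitotic genes was lower after 6 h of infliximab, and no member rose. Against 0 h, 5 of the 45 genes fell: CDC20, PTTG1, MKI67, SMC2 and CENPF. Of all genes tested, 5.7% fell and 4.52% rose in the same comparison, which would be about 2 to 3 of 45 genes each way. Of the 81 member probe sets 7 fell, against 4.4% of all probe sets. Most members lay a little below 0: 38 of the 45 (84.4%, against 59.1% of all genes), with a median difference of -0.19 on the log2 scale against -0.05 for all genes. The 3 infliximab arrays lay wholly below the 3 untreated arrays for 24 members, where 19.8% of all genes did so, and wholly above them for 1 member, where 12.7% of all genes did.

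**Figure D1:**
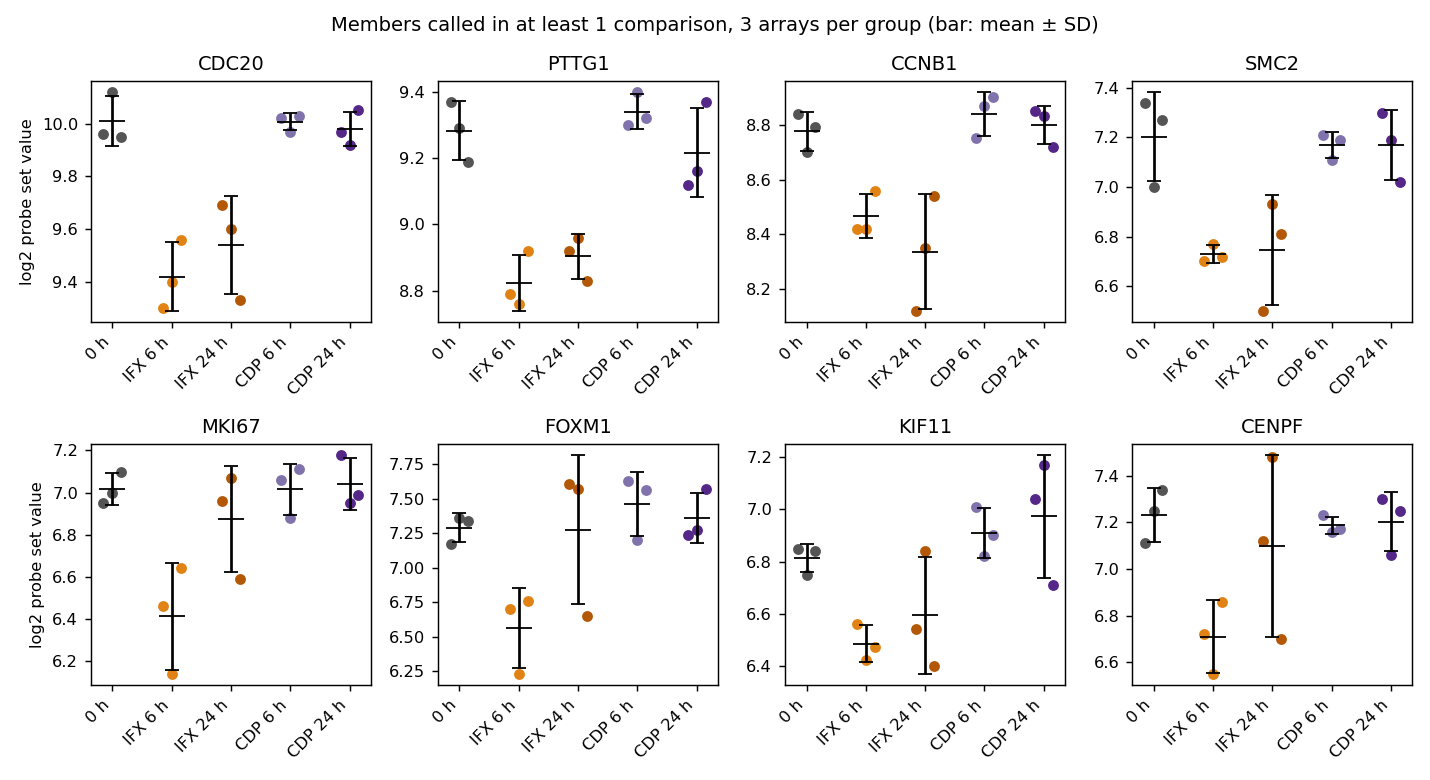
Log2 values of 8 member genes called in at least 1 comparison, 1 panel per gene; points are the 3 arrays of each group (IFX, infliximab; CDP, CDP870) and bars the mean ± SD. CDC20 and PTTG1 sit lower on every infliximab array than on every untreated and CDP870 array, while MKI67 and FOXM1 are low at 6 h. With infliximab at 24 h, replicate 7 lies below the untreated range for both MKI67 and FOXM1. Replicates 5 and 6 lie within that range for MKI67 and above it for FOXM1.

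The anaphase genes were the clearest. CDC20, the activator of the anaphase-promoting complex, read 9.96, 10.12 and 9.95 on the untreated arrays and 9.30, 9.40 and 9.56 after 6 h of infliximab. The groups did not overlap, and CDC20 fell by 0.59 ± 0.10 (adjusted p = 0.00351, limma), to 0.664 of its untreated level. PTTG1, the securin that holds separase back, read 9.37, 9.29 and 9.19 untreated and 8.79, 8.76 and 8.92 with infliximab at 6 h. It fell by 0.46 ± 0.09 (adjusted p = 0.00766), again with no overlap. The other anaphase genes were not called on the probe sets that describe them: UBE2C, the ubiquitin-conjugating enzyme of the complex, differed by -0.37 (adjusted p = 0.0643), and ESPL1, separase itself, by -0.41 (adjusted p = 0.188). A second ESPL1 probe set, 204817_at, fell by 0.59 (adjusted p = 0.0402).

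Among chromosome structure genes, MKI67, which encodes the proliferation antigen Ki-67 that coats mitotic chromosomes, read 6.95, 7.0 and 7.10 untreated and 6.46, 6.14 and 6.64 with infliximab at 6 h. It fell by 0.60 ± 0.14 (adjusted p = 0.017). Of the 4 tested MKI67 probe sets only this 1 was called, and their differences ran from -0.60 to -0.51. SMC2, the core subunit of both condensin complexes, read 7.34, 7.0 and 7.27 untreated and 6.70, 6.77 and 6.72 with infliximab, and fell by 0.47 ± 0.12 (adjusted p = 0.0255). Neither gene's groups overlapped on these probe sets. A second SMC2 probe set, 213253_at, differed by -0.35 and was not called. The other 4 genes of this role did not pass: TOP2A, the topoisomerase that untangles sister chromatids, read 8.89, 8.79 and 9.04 untreated and 9.03, 9.02 and 9.02 with infliximab (0.12, adjusted p = 0.567). SMC4, the partner of SMC2 in condensin, differed by 0.05, NCAPG by -0.04 and NCAPH by -0.23.

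CENPF, a large kinetochore protein, read 7.11, 7.25 and 7.34 untreated and 6.72, 6.55 and 6.86 with infliximab at 6 h. It fell by 0.52 ± 0.15 (adjusted p = 0.0495), at the edge of the threshold. A second CENPF probe set, 209172_s_at, differed by -0.42 and was not called. Its role mates CENPA, the centromeric histone, and CENPE, a kinetochore motor, differed by -0.31 and -0.15 and were not called. Of the 9 kinesins and spindle proteins none was called at 6 h against 0 h, with a median of -0.14. KIF20A, a kinesin of the central spindle, came nearest at -0.35 (adjusted p = 0.0553).

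Several further members, regulators of entry among them, lay just outside the threshold. FOXM1, the transcription factor of G2/M genes, read 7.17, 7.36 and 7.34 untreated and 6.70, 6.23 and 6.76 with infliximab at 6 h, so the groups did not overlap, and its difference of -0.73 ± 0.22 had an adjusted p of 0.0551. PLK1, the polo kinase of mitotic entry and spindle assembly, read 7.38, 7.48 and 7.51 untreated and 6.81, 7.02 and 7.26 with infliximab (-0.43, adjusted p = 0.0518). BUB1B, the checkpoint protein BubR1, differed by -0.38 (adjusted p = 0.0648), and CCNB1, cyclin B1, by -0.31 (adjusted p = 0.083). None of the 8 cyclins and CDK1 regulators, the 3 mitotic kinases, the 5 spindle checkpoint genes, the 4 chromosomal passenger genes or the 3 cytokinesis genes was called here on the probe sets that describe them, by limma, with role medians of -0.18, -0.21, -0.02, -0.17 and -0.14. Over all 45 members, 19 had an unadjusted p under 0.05, as did 3553 of the 13607 genes tested. ANLN, a scaffold of the cytokinetic ring, was called on its second probe set: 1552619_a_at read 7.44, 6.94 and 7.57 untreated and 6.79, 6.79 and 6.78 with infliximab at 6 h, and fell by 0.53 ± 0.14 (adjusted p = 0.0302). This call was lost without untreated replicate 2 or 4 or any infliximab 6 h replicate. AURKB, the kinase of the passenger complex, read 6.54, 6.62 and 6.42 untreated and 6.34, 6.25 and 6.53 with infliximab, and these overlapped.

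The 6 h counts rest on few arrays and depend on whether the spike-in level is in the fit. That level was 7.38 ± 0.13 (SD) at 0 h and 7.75 ± 0.04 with infliximab at 6 h, so the fit can separate it from treatment only poorly. With the spike-in level as a covariate no member was called (11 had an unadjusted p under 0.05), and 0.626% of all probe sets were. The median member difference was then -0.23, beside -0.19 without the covariate, and CDC20 differed by -0.50 ± 0.15 (adjusted p = 0.186, limma). The count was 12 without the 3 arrays that stood apart, and it ran from 2 to 11 with 1 array left out: 2 without untreated replicate 4 or infliximab 6 h replicate 9, 3 without untreated replicate 2 or infliximab 6 h replicate 8, 10 without infliximab 24 h replicate 5 and 11 without infliximab 24 h replicate 7. CDC20 and PTTG1 stayed called in every one of these fits. MKI67 was lost without untreated replicate 4 or infliximab 6 h replicate 9. SMC2 was lost without untreated replicate 2 or 4 or any infliximab 6 h replicate. CENPF was called only in the fits without 1 of the infliximab 24 h arrays.

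**Figure D2:**
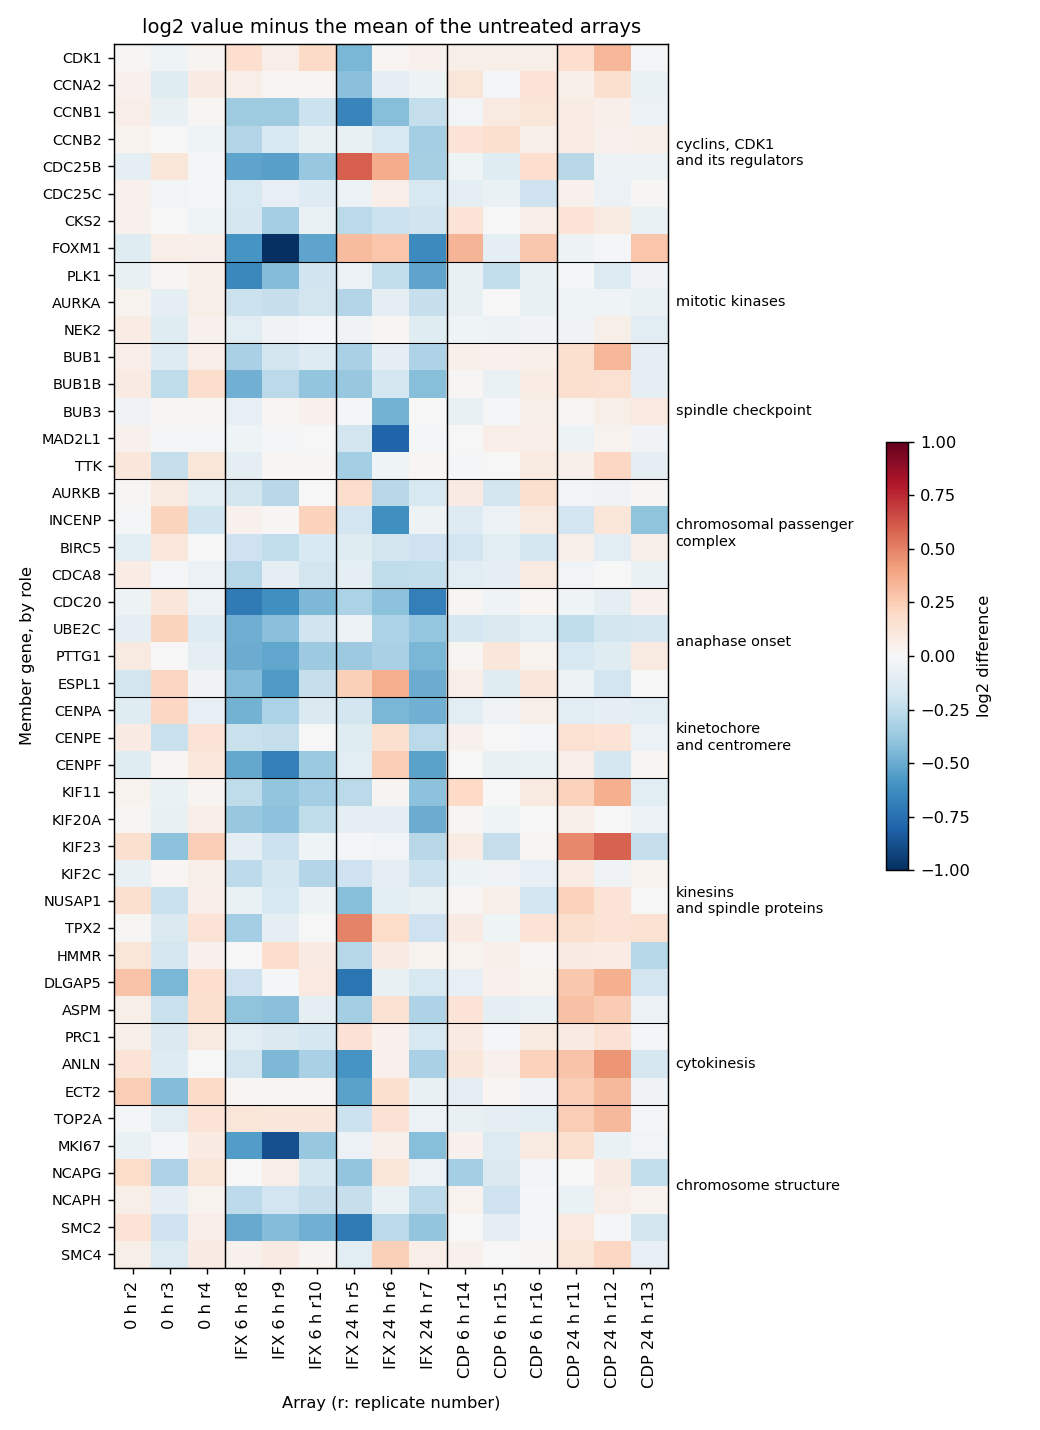
Difference of each array from the untreated mean for the 45 genes (rows, in order of role), on a log2 colour scale that ends at -1 and 1. Most cells of the 3 infliximab 6 h arrays lie below 0, the CDP870 arrays vary around 0, and infliximab 24 h replicates 5, 6 and 7 differ among themselves.

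Against CDP870 at the same 6 h, 7 members were lower with infliximab and none higher, where 4.95% of all genes were lower and 5.55% higher. The 7 were CDC20, PTTG1, MKI67, FOXM1, SMC2, CCNB1 and KIF11. The median member difference was -0.19, beside -0.05 for all genes, and 37 members (82.2%) lay below 0, beside 57.9% of all genes. The 2 groups were fully apart for 21 members in the lower direction and 2 in the higher, against 23.7% and 17.8% of all genes. On the CDP870 arrays CDC20 read 10.02, 9.97 and 10.03, and the difference of infliximab from it was -0.59 ± 0.10 (adjusted p = 0.00331). PTTG1 read 9.30, 9.40 and 9.32 with CDP870 and differed by -0.52 ± 0.09 (adjusted p = 0.00337).

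FOXM1 showed the largest size of difference among the 45 genes in this comparison. Its CDP870 arrays read 7.63, 7.20 and 7.56, above all 3 infliximab values, and the difference was -0.90 ± 0.22 (adjusted p = 0.0201), a level of 0.536 of that with CDP870. MKI67 read 7.06, 6.88 and 7.11 with CDP870 (-0.60, adjusted p = 0.0157), SMC2 7.21, 7.11 and 7.19 (-0.44, adjusted p = 0.0339), and CCNB1 8.75, 8.87 and 8.90 against 8.42, 8.42 and 8.56 with infliximab (-0.37, adjusted p = 0.0377). The second probe sets of SMC2 (213253_at) and CCNB1 (228729_at) differed by -0.22 and -0.03 and were not called. KIF11, the plus-end motor that pushes spindle poles apart, differed by -0.43 ± 0.13 (adjusted p = 0.0492). Of the 81 member probe sets 11 were lower (3.98% of all probe sets), and 4 of these are not the ones that describe their gene: a second MKI67 probe set (212021_s_at, -0.67), that of ANLN (1552619_a_at, -0.59), a second one of the kinase AURKA (204092_s_at, -0.27) and the second one of ESPL1 (204817_at, -0.62).

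The 95% interval of the FOXM1 difference ran from -1.37 to -0.43. Leaving out single arrays moved the count from 2 to 12: it was 2 without infliximab 6 h replicate 9 or CDP870 6 h replicate 14 or 16, 4 without infliximab replicate 8 or 10 or CDP870 6 h replicate 15, and 12 without infliximab 24 h replicate 7. CDC20 and PTTG1 were called in each of these. MKI67 and FOXM1 were lost without infliximab 6 h replicate 9 or CDP870 6 h replicate 14 or 16, and SMC2, CCNB1 and KIF11 were lost without any 1 of the 6 arrays compared. CCNB1 was also lost without CDP870 24 h replicate 11 or 12, and KIF11 without untreated replicate 2 or 4 or CDP870 24 h replicate 11. With the spike-in level as a covariate, 1 member was called (CDC20, -0.52 ± 0.13, adjusted p = 0.0482; 2.6% of all probe sets), PTTG1 had an adjusted p of 0.0557 and the median was still -0.19.

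The promoters of these called genes are shown because most members share letters there that the membership rule did not use. TTTGAA is the core of the CHR element, and CCAAT is the CCAAT box, both known in promoters of G2/M genes. The windows run over the 250 bases before the start of each gene, from RefSeq on GRCh38.p14, given 5′ to 3′ on the gene's own strand, with matches to the letters of TTTGAA and CCAAT on either strand in capitals. FOXM1 has no entry.
CDC20: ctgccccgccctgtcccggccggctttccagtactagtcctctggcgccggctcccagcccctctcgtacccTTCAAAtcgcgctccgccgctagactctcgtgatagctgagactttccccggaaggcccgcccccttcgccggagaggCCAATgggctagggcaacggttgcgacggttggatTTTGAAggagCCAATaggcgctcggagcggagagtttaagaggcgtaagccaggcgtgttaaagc
PTTG1: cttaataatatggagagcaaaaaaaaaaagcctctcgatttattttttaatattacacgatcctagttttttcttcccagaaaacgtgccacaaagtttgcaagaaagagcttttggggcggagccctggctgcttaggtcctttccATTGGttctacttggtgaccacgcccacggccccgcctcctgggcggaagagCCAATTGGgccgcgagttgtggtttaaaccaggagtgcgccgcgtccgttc
MKI67: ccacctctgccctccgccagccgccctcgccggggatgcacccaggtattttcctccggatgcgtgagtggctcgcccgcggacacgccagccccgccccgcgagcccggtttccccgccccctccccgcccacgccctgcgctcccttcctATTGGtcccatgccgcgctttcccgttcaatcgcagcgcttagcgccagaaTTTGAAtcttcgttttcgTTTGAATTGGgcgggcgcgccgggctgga
SMC2: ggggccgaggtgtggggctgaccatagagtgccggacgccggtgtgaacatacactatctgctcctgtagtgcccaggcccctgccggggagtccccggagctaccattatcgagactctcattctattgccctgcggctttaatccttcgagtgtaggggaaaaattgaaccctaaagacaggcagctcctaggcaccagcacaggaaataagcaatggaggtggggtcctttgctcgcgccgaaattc
CCNB1: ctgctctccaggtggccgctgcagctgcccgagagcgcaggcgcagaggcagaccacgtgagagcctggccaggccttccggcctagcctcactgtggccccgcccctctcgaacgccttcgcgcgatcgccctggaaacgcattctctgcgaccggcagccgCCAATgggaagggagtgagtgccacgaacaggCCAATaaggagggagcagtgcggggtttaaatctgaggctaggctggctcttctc
KIF11: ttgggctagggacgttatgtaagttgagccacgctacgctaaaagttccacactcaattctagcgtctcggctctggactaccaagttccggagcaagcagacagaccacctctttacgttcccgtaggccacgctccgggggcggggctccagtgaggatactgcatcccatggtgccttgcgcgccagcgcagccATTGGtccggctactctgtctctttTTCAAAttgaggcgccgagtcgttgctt
CDC20 lies at chr1:43358731-43358980 (+), PTTG1 at chr5:160421605-160421854 (+), MKI67 at chr10:128126424-128126673 (-), SMC2 at chr9:104094059-104094308 (+), CCNB1 at chr5:69166900-69167149 (+) and KIF11 at chr10:92592880-92593129 (+). CDC20 and MKI67 each hold 2 TTTGAA and 2 CCAAT matches, PTTG1 holds 3 CCAAT matches of which the last pair overlaps, CCNB1 holds 2 CCAAT matches, KIF11 holds 1 of each, and SMC2 holds neither in these 250 bases. In MKI67 the last TTTGAA and the CCAAT match beside it share a base.

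Over the 300 bases of an entry (250 before and 50 after the start), 38 members had a promoter. SMC2 has a TTTGAA match across its start, which these entries include and the printed window does not. TTTGAA was in 26 of them (68.4%), against 15.4% of all 27305 promoters of that length and 12.1% of the 15843 of protein-coding genes. CCAAT was in 29 (76.3%, against 35.7% of all promoters), and 21 (55.3%) held both, against 6.08%. Members with and without TTTGAA had median differences of -0.18 and -0.22 for infliximab at 6 h against 0 h, and of -0.22 and -0.18 against CDP870 at 6 h. At 24 h the medians were -0.20 and -0.18 against 0 h, and -0.28 and -0.20 against CDP870. These are descriptions over 26 and 12 genes, and a match of letters is not a bound site.

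At 24 h of infliximab, 4 of the 45 members were lower than at 0 h and none higher: CDC20, CCNB1, PTTG1 and SMC2. Of all genes 3.45% fell and 4.75% rose. Of the 81 member probe sets 7 fell, against 2.79% of all probe sets. Below 0 lay 40 of the 45 (88.9%, against 53% of all genes), with a median of -0.17 against -0.02. The groups were fully apart downward for 11 members and upward for none, against 11.4% and 9.93% of all genes. CCNB1, cyclin B1, read 8.84, 8.70 and 8.79 untreated and 8.12, 8.35 and 8.54 with infliximab at 24 h, and fell by 0.44 ± 0.10 (adjusted p = 0.0213). A second CCNB1 probe set, 228729_at, differed by -0.08 and was not called.

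CDC20 read 9.69, 9.60 and 9.33 on the infliximab 24 h arrays, all below the untreated ones, and fell by 0.47 ± 0.10 (adjusted p = 0.0148). PTTG1 read 8.92, 8.96 and 8.83 and fell by 0.38 ± 0.09 (adjusted p = 0.0234). SMC2 read 6.50, 6.93 and 6.81 and fell by 0.46 ± 0.12 (adjusted p = 0.035). Its second probe set, 213253_at, differed by -0.14 and was not called. The 4 genes that were called lay below the untreated range on all 3 arrays, on the probe sets that describe them. MKI67 and CENPF, called at 6 h, were at -0.14 and -0.13 at 24 h, with groups that overlapped. By role, 1 of 8 cyclins and CDK1 regulators, 2 of 4 anaphase genes and 1 of 6 chromosome structure genes fell, and none of the kinases, the checkpoint, passenger, kinetochore, spindle and cytokinesis genes did on the probe sets that describe them. On its second probe set, 1552619_a_at, ANLN read 6.77, 6.90 and 6.75 and fell by 0.51 ± 0.14 (adjusted p = 0.0422), a call made in 3 of the 15 leave-one-out fits.

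The 3 infliximab 24 h arrays did not read alike for the members. The median SD over these 3 arrays was 0.20, against 0.11 at 0 h, 0.09 with infliximab at 6 h, and 0.07 and 0.12 with CDP870, and 15 members had an SD over 0.25. Over all genes the median SD was 0.16 with infliximab at 24 h and 0.15 at 0 h. It was 0.10 with infliximab at 6 h, and 0.09 and 0.11 with CDP870 at 6 and 24 h. Replicate 7 lay below the lowest untreated array for 30 members and replicate 5 for 29, but replicate 6 for 17. FOXM1 read 7.61, 7.57 and 6.65 on replicates 5, 6 and 7, with untreated values of 7.17 to 7.36, so replicates 5 and 6 were above the untreated range and replicate 7 below it. CDC25B, a phosphatase that activates CDK1, read 7.30, 7.07 and 6.37 against 6.60, 6.82 and 6.68 untreated, in the same order. ESPL1 read 7.18, 7.31 and 6.45. These 3 genes and TPX2, a spindle assembly factor, were the members above the untreated range on both replicates 5 and 6.

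**Figure D3:**
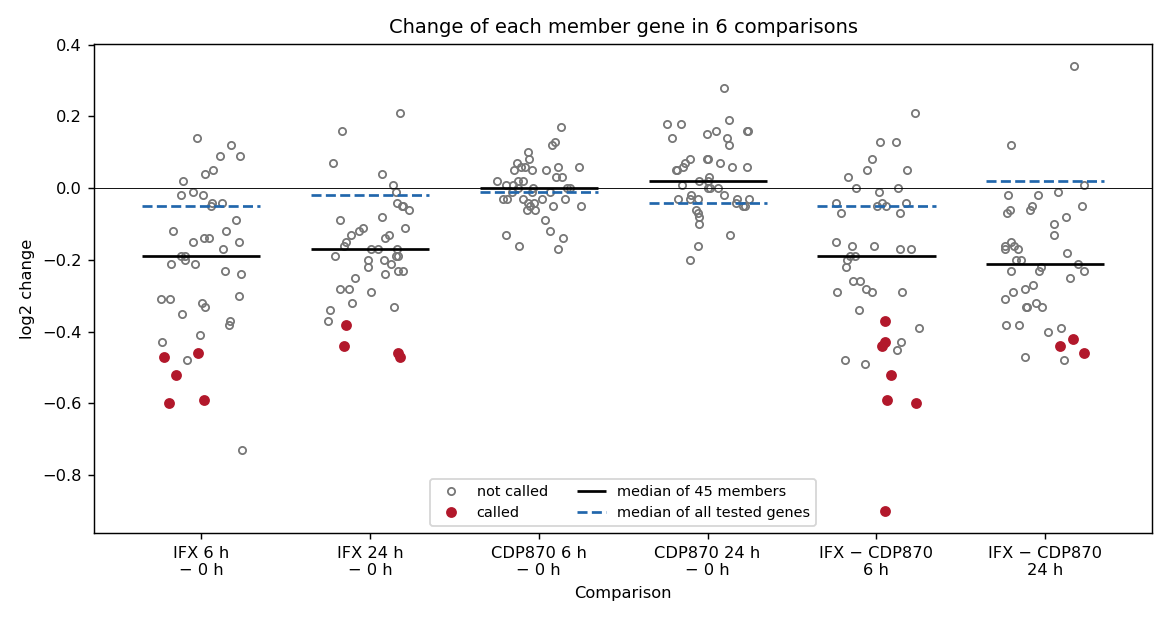
Log2 difference of each of the 45 members (points; filled where called) in 6 comparisons, with the median of the members (solid line) and of all tested genes (dashed line). In the 4 infliximab comparisons the member median lies between -0.21 and -0.17, and the CDP870 points against 0 h lie between -0.20 and 0.28 around medians of 0 and 0.02.

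Infliximab at 24 h against 6 h gave no member call by limma, and 8 members had an unadjusted p under 0.05 (0% of all genes were called, and 1580 had an unadjusted p under 0.05). The largest differences were CDC25B at 0.70 ± 0.18, FOXM1 at 0.71 and MKI67 at 0.46, each with an adjusted p of 0.3. On the fit without infliximab 24 h replicate 7, 7 members were called, 6 of them higher at 24 h (CDC25B, CENPF, ESPL1, FOXM1, MKI67 and TPX2) and MAD2L1 lower, when 8.52% of all probe sets were called. The test of agent by time also called none (6 at an unadjusted p under 0.05; 0% of all genes were called and 1245 of 13607 had such a p), led by CDC25B at 0.83 (adjusted p = 0.502), TOP2A at -0.44 (adjusted p = 0.502) and FOXM1 at 0.82 (adjusted p = 0.506), and called CDC25B, ESPL1 and FOXM1 without that array, when 3.18% of all probe sets were called.

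Leaving out 1 array moved the infliximab 24 h count from 1 (without untreated replicate 2) or 2 (without untreated replicate 4) to 5 (without infliximab 24 h replicate 7, where 1 was higher, or without untreated replicate 3). Without the 3 arrays that stood apart, only 1 infliximab 24 h array (replicate 7) is left, so no count is given. The median member difference was then -0.28. With only the untreated and infliximab 24 h arrays in the fit no member was called (5 had an unadjusted p under 0.05), and 0.692% of all probe sets were. With the spike-in level as a covariate the count was 3. CDC20 stayed called in every leave-one-out fit. PTTG1 was lost without untreated replicate 2 or infliximab 24 h replicate 7. CCNB1 was lost without untreated replicate 2 or 4 or infliximab 24 h replicate 5. SMC2 was lost in those fits and also without CDP870 6 h replicate 14.

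Infliximab against CDP870 at 24 h gave 3 lower members, CCNB1, CDC20 and SMC2, and none higher, against 2.14% of all genes lower and 6.06% higher. Of the 81 member probe sets 7 were lower, against 1.79% of all probe sets. The median was -0.21, where that of all genes was 0.02, and 42 of 45 members (93.3%, against 46.5% of all genes) lay below 0. The groups stood apart downward for 15 members and upward for none, against 9.69% and 14% of all genes. CCNB1 read 8.85, 8.83 and 8.72 with CDP870 at 24 h, above all 3 infliximab values, and differed by -0.46 ± 0.10 (adjusted p = 0.0154). CDC20 read 9.97, 9.92 and 10.05 with CDP870 (-0.44, adjusted p = 0.0203) and SMC2 read 7.30, 7.19 and 7.02 (-0.42, adjusted p = 0.0492). The second probe sets of CCNB1 (228729_at) and SMC2 (213253_at) differed by -0.20 and -0.10 and were not called. A second AURKA probe set, 204092_s_at, was called lower. It read 8.29, 8.36 and 8.34 with infliximab and 8.60, 8.64 and 8.69 with CDP870. The probe set that describes AURKA was not called. PTTG1, at 9.12, 9.16 and 9.37 with CDP870, differed by -0.31 (adjusted p = 0.0574). The second ANLN probe set, 1552619_a_at, read 7.47, 7.57 and 7.17 with CDP870 and differed by -0.60 (adjusted p = 0.0192; lost without infliximab 24 h replicate 5 or CDP870 24 h replicate 11 or 12).

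The count at 24 h was 0 without CDP870 24 h replicate 11, 1 without CDP870 24 h replicate 12 or infliximab 24 h replicate 5, 5 without untreated replicate 3 or CDP870 24 h replicate 13, and 6 without infliximab 24 h replicate 6. Without CDP870 24 h replicate 11, 11 members had an unadjusted p under 0.05. CDC20 was lost without infliximab 24 h replicate 7 or CDP870 24 h replicate 11 or 13, and CCNB1 without infliximab 24 h replicate 5 or CDP870 24 h replicate 11 or 12. SMC2 was called in 4 of the 15 leave-one-out fits. With only the 2 groups compared in the fit no member was called (10 had an unadjusted p under 0.05), and 1.15% of all probe sets were.

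**Figure D4:**
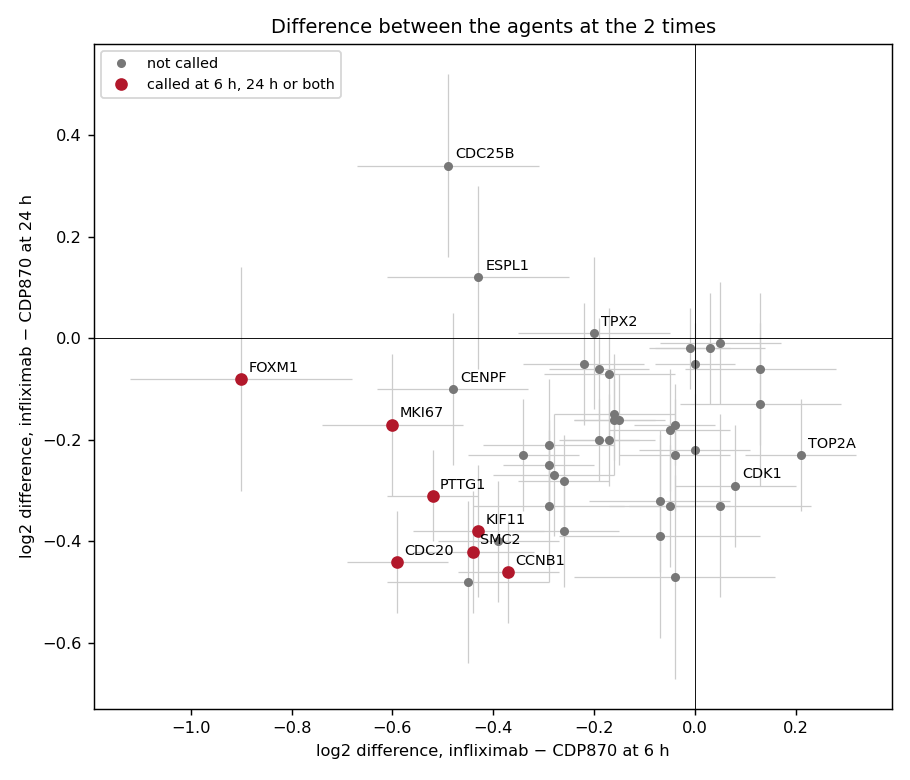
Difference of infliximab from CDP870 at 6 h (x) and at 24 h (y) for the 45 members, log2 scale, with standard errors as grey bars and genes called at either time in red. The members gather in the lower left, with 34 of 45 below 0 at both times, and FOXM1 and CDC25B lie far to the left with values near or above 0 at 24 h.

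The matched comparisons at 6 h and 24 h share no arrays. Below 0 at both times were 34 of the 45 members (75.6%), against 35% of all genes. At 6 h 82.2% of members lay below 0 and at 24 h 93.3%, against 57.9% and 46.5% of all genes. With shares this high, most members would lie below 0 at both times even if their differences were unrelated. The 3 members lower at 24 h were among the 7 lower at 6 h, that is 42.9% of the 7 and 100% of the 3, where 159 genes in all were lower at both (23.6% and 54.6%). Between the times, Pearson's r over the members was 0.07 and Spearman's rho 0.2, against 0.64 and 0.48 over all genes. The genes of a sample are not independent.

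CDK1, the kinase that drives entry into mitosis, gave different answers on its 4 probe sets. The brightest, 203213_at, read 8.78, 8.73 and 8.80 untreated, 8.94, 8.84 and 8.96 with infliximab at 6 h and 8.31, 8.79 and 8.81 at 24 h. It was not called in any comparison (0.14 at 6 h and -0.13 at 24 h against 0 h). In contrast 203214_x_at read 8.25, 8.36 and 8.25 untreated and 7.58, 7.58 and 8.01 with infliximab at 24 h, and fell by 0.56 ± 0.11 (adjusted p = 0.0073). The probe set 210559_s_at read 8.40, 8.35 and 8.28 untreated and 7.58, 7.59 and 8.12 at 24 h, and fell by 0.58 ± 0.13 (adjusted p = 0.013; lost without untreated replicate 2 or infliximab 24 h replicate 6). Against CDP870 at 24 h these 2 CDK1 probe sets differed by -0.50 (adjusted p = 0.0139) and -0.52 (adjusted p = 0.0223). Both calls were lost without infliximab 24 h replicate 5 or 6 or CDP870 24 h replicate 12, and the second also without CDP870 24 h replicate 11 or 13. The dimmer 231534_at read 2.05, 4.36 and 5.81 on the infliximab 24 h arrays, the lowest of these on replicate 5. The x_at and s_at probe sets may also read other transcripts, and which CDK1 probe set follows the gene's RNA cannot be told from these files. The probe sets that describe CDC20, PTTG1, MKI67, SMC2, CCNB1, CENPF and FOXM1 are also x_at or s_at, so this limit holds for their calls too.

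**Figure D5:**
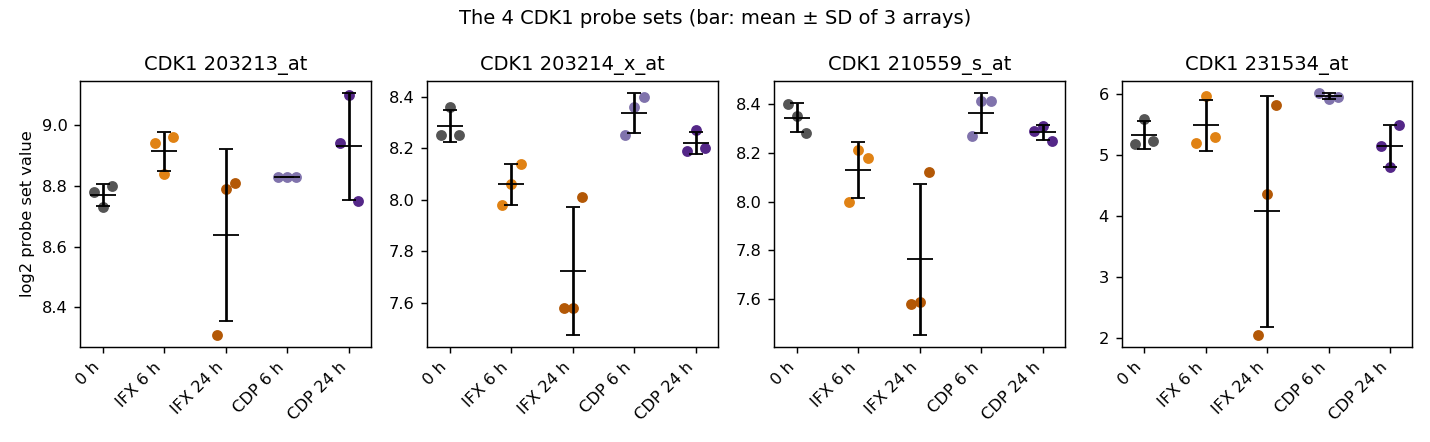
Log2 values of the 4 CDK1 probe sets, 1 panel each; points are the 3 arrays of a group (IFX, infliximab; CDP, CDP870) and bars the mean ± SD. On 203214_x_at and 210559_s_at replicates 5 and 6 of infliximab at 24 h read 7.58 to 7.59, below every other array, and on 203213_at only replicate 5, at 8.31, does so.

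No member was called with CDP870. Against 0 h none of the 45 was called at 6 h or at 24 h, by limma, and none had an unadjusted p under 0.05, where 0% of all genes were called and 561 and 627 genes had such a p. The median member difference was 0 at 6 h and 0.02 at 24 h, beside -0.01 and -0.04 for all genes, and 22 and 18 members lay below 0, against 52.3% and 62.7% of all genes. At 6 h the smallest p-values belonged to BIRC5, the survivin subunit of the passenger complex, at -0.16, CDC25C at -0.12 and CCNB2, cyclin B2, at 0.12, each with an adjusted p of 0.997. At 24 h UBE2C lay at -0.20 and TOP2A at 0.18, with an adjusted p of 0.974. A missed threshold does not show that CDP870 left these genes alone: the 95% intervals of single members reached from -0.50 to 0.64 at 6 h and from -0.51 to 0.71 at 24 h. For CDC20 the intervals were -0.23 to 0.22 and -0.25 to 0.19. CDP870 at 24 h against 6 h also gave no call, with 1 member at an unadjusted p under 0.05, and 0% of all genes were called.

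Over all 5 groups together, 6 members differed by the F test, CDC20 (adjusted p = 0.00212), PTTG1 (0.00397), CCNB1 (0.0125), SMC2 (0.0198), MKI67 (0.0306) and BUB1B (0.0443), against 11.4% of all genes. The count ran from 3 (without infliximab 6 h replicate 8) to 10 (without infliximab 24 h replicate 7).

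Other genes of the same pathway, from lists that are not members, also held lower genes with infliximab. These lists too were chosen with earlier results of these data known, so they are no independent support. The shares of all genes to set beside the counts are 5.7% lower and 4.52% higher at 6 h against 0 h, 3.45% and 4.75% at 24 h, and 4.95% and 5.55% against CDP870 at 6 h. Against CDP870 at 24 h they are 2.14% and 6.06%. Of 38 further kinetochore and spindle genes, 8 fell with infliximab at 6 h and 4 at 24 h against 0 h, and 9 and 4 were lower than with CDP870; none was higher. CDCA3, an F-box-like trigger of mitotic entry, fell by 0.63 ± 0.10 at 6 h (adjusted p = 0.00139) and by 0.59 at 24 h (adjusted p = 0.00242), and FAM83D, a spindle protein, fell by 0.42 (adjusted p = 0.0105) and 0.45 (adjusted p = 0.00782). Of 17 anaphase-promoting complex genes, 4 fell and 1 rose at 6 h, with ANAPC5 at -0.42 (adjusted p = 0.00426) and ANAPC16 at 0.42 (adjusted p = 0.00841). Of 13 further condensin and cohesin genes, 3 fell and 1 rose at 6 h against 0 h and 6 were lower and none higher than with CDP870 at 6 h. By limma none was called at 24 h in either comparison (4 and 0 had an unadjusted p under 0.05). At 6 h against 0 h, NCAPD3 was at -0.64 (adjusted p = 0.0126) and the cohesin subunit RAD21 at 0.57 (adjusted p = 0.022).

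The upstream regulators held calls in both directions. Of 16 MuvB, B-Myb, E2F and pocket protein genes, 1 fell at 6 h against 0 h, MYBL2 (B-Myb, -0.39, adjusted p = 0.0272). At 24 h against 0 h 1 rose, LIN37 (0.48, adjusted p = 0.0378). Such single calls among 16 genes are near the shares of 5.7% and 4.75% of all genes. Against CDP870, 1 was lower and 0 higher at 6 h, and 1 was lower and 1 higher at 24 h. Of 20 CDK inhibitors and G2 checkpoint genes, 2 rose and 4 fell at 6 h, and 2 rose and 3 fell at 24 h, against 0 h. Against CDP870, 3 were higher and 4 lower at 6 h, and 4 were higher and 3 lower at 24 h. Against 0 h, named genes were as follows. CDKN1B, the CDK inhibitor p27, rose by 0.64 ± 0.11 at 6 h (adjusted p = 0.00351), while CDC25A, a phosphatase that activates CDKs, fell by 0.64 ± 0.11 (adjusted p = 0.00318). At 24 h GMNN, geminin, which blocks relicensing of DNA, fell by 0.58 ± 0.10 (adjusted p = 0.00254).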

How the data were processed

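RNA of 15 THP-1 samples was measured on Affymetrix arrays with 54675 probe sets, 3 arrays in each of 5 groups taken from the labels. The authors deposited log2 values per probe set. Per the submitters' processing notes, which give neither role nor order, GCRMA and GCOS 1.3.0 were used, and per the labels' protocols biotin-labelled cRNA was hybridised. How background and array differences were handled is not given in the sources used.

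The 45 genes and all gene lists were chosen with earlier results of these data known. Probe sets were named through the platform annotation; of the 54613 that are no controls, 41091 had 1 gene symbol, 1801 several and 11721 none, and those with several were not used. A probe set was tested if it lay above its array's 50th percentile on at least 3 of 15 arrays. The test was limma (version 3.58.1, R 4.3.3) on all 15 arrays at once, with a mean for each group (10 residual degrees of freedom). There were 10 comparisons, and two-sided p-values received Benjamini-Hochberg adjustment over the 28897 tested probe sets within each. The fit was tested on simulated data. Array values are given for members called in a comparison, up to 6 by smallest p, for the 3 smallest p-values where fewer were called, and for 9 genes always looked up; other lists name up to 2 called genes. A fold is 2 raised to the log2 difference. The number of arrays limits the precision. Promoters came from RefSeq tables of GRCh38.p14. Plots used matplotlib 3.10.9 and Python 3.11.15.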

Additional observations from a re-analysis of the deposited data

How the results depend on the processing

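Results were recomputed under up to 25 alternatives, 15 of which left out 1 array; the F test has no fit of only the groups compared, and second probe sets of a gene have none with gene means. Shares of all probe sets called in the same fit are in parentheses. No member count for CDP870 against 0 h, or for CDP870 at 24 h against 6 h, moved from 0. For infliximab at 6 h against 0 h the count of 5 (8.42%) became 8 with a filter over all 15 arrays (10.7%), 3 with median centring (7.79%), 17 with array weights (15.9%), 0 with the spike-in covariate (0.626%), 9 with the mean of a gene's probe sets (12% of genes), 13 with a variance trend (10%) and 12 without the 3 arrays that stood apart (10.8%), and 2 to 11 with 1 array left out. At 24 h the count of 4 (6.57%) became 2 with centring (6.42%) and 0 with only the groups compared (0.692%), and 1 to 5 with 1 array left out. Leaving out the 3 arrays keeps only 1 infliximab 24 h array, so counts that use that group are not given for that fit. Against CDP870 at 6 h, 7 (9.07%) became 4 with no filter (4%), 4 with centring (8.36%), 17 with weights (21.9%), 14 with only the groups compared (17.7%), 1 with the covariate (2.6%), 11 with the trend (10.4%) and 15 without the 3 arrays (19.5%), and 2 to 12 with 1 array left out. Against CDP870 at 24 h, 3 (6.51%) became 5 with the filter over all arrays (7.93%), 0 with only the groups compared (1.15%), 6 with gene means (9.44% of genes) and 7 with the trend (7.45%), and 0 to 6 with 1 array left out. For infliximab at 24 h against 6 h the count ran from 0 to 7, for agent by time from 0 to 3, and for any difference from 3 to 10 with 1 array left out, and the last (6, 9.43%) was 20 with weights (20.8%) and 11 with the trend (11.1%). The causes were not tested.

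Of the 19 calls of member genes in the infliximab comparisons, 1 was kept under every alternative (CDC20 against CDP870 at 6 h), 5 in every leave-one-out fit, 13 were lost with the spike-in covariate, and none changed direction. Some results that were not called changed sign. Against 0 h at 6 h, CDK1 became -0.12 with the covariate and -0.04 with gene means, and TOP2A -0.07 with the covariate. At 24 h CDK1 became 0.02 without the 3 arrays, a fit that keeps only 1 infliximab 24 h array. TOP2A became 0.01 with centring and 0.02 with gene means, and FOXM1 0.04 with centring, 0.06 with weights and 0.08 with the covariate. With 1 array left out at 24 h, CDK1 ran from -0.22 to 0.03, AURKB from -0.22 to 0.01, TOP2A from -0.14 to 0.04, CENPF from -0.32 to 0.07 and FOXM1 from -0.18 to 0.30. Against CDP870 at 6 h CDK1 became -0.10 with the covariate and -0.23 with gene means. Against CDP870 at 24 h FOXM1 became 0.04 with weights, and with 1 array left out AURKB ran from -0.20 to 0.02, CENPF from -0.29 to 0.10 and FOXM1 from -0.25 to 0.23. Dim probe sets are measured close to the background of the array, so their differences are least certain. No paired analysis was possible because no replicate number occurs in more than 1 group.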

Other observations

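A probe set annotated to both SLC35F6 and CENPA was not used for the centromeric histone. Of the 12 dim member probe sets, 2 belong to ASPM and 2 to BUB1. The faint 208080_at of AURKA read 2.02 on infliximab 24 h replicate 5 and 4.48 to 5.29 on the other 14 arrays, and the faint 231534_at of CDK1 read 2.05 on that same array.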
